A study of Homo sapiens with 9 samples.

Results

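The S100 genes encode small calcium-binding proteins, and 10 of them were followed here among the 26485 genes listed: S100A2, S100A4, S100A6, S100A8, S100A9, S100A10, S100A11, S100A13, S100A16 and S100P. They were taken by gene name and not by a measured value, though with earlier results of these data known. RNA came from MDA-MB-231, a human triple-negative breast cancer cell line with mesenchymal features, and was sequenced in 9 libraries. In 3 libraries the cells stably expressed a non-specific (NS) shRNA, in 3 ASAH1 shRNA #1 and in 3 ASAH1 shRNA #2, so control cells carried a hairpin too. ASAH1 encodes acid ceramidase, the lysosomal enzyme that splits ceramide, and the comparison asks what its knockdown does to the transcriptome. The study's design text names 3 biological replicates per group. All results come from 1 cell line, 1 control hairpin and RNA alone, and both knockdown comparisons use the same NS libraries.

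An S100 protein is usually a dimer whose EF-hand loops take up calcium, which exposes a surface that binds a partner protein. S100A10 is the exception, since its loops no longer bind calcium. Partners inside the cell include annexins and cytoskeletal proteins, while several S100 proteins leave the cell and bind receptors such as RAGE and TLR4. In breast cancer the family is best known for S100A4, which binds non-muscle myosin and is associated with metastasis, and for the myeloid pair S100A8 and S100A9.

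The libraries held 30989598 to 34867548 reads on genes with NS shRNA, 23806003 to 39791698 with shRNA #1 and 35653318 to 49659106 with shRNA #2. ASAH1 was measured first, as the targeted gene. Its level in TMM-scaled reads per 1000000 (CPM, scaled to reads on genes with a composition correction between libraries) was 133, 136 and 135 in the NS libraries, 38.0, 41.4 and 40.7 with shRNA #1, and 21.7, 22.5 and 21.3 with shRNA #2. This is 0.296 of the NS level with shRNA #1 (limma, adjusted p = 9.49e-09) and 0.161 with shRNA #2 (adjusted p = 5.42e-10), and the 3 groups did not overlap. The hairpins differed from each other in ASAH1 by a log2 ratio of -0.89 (shRNA #2 to shRNA #1, edgeR, adjusted p = 6.96e-08). The markers of a mesenchymal line were high throughout, with a summed level of 3521 to 4554 CPM, and the hormone receptor genes ESR1 and PGR had at most 2 reads in any library.

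Of the 10 genes, 9 lie on chromosome 1 and S100P lies on chromosome 4 (GENCODE release 44, GRCh38). S100A10 (151982915 to 151993859) and S100A11 (152032506 to 152047907) come first on the minus strand. S100A9 (153357854 to 153361023, plus strand) and S100A8 (153390032 to 153391073) follow. S100A6 (153534599 to 153536244), S100A4 (153543613 to 153550136), S100A2 (153561108 to 153567890), S100A16 (153606886 to 153613145) and S100A13 (153618787 to 153631360) lie close together, all on the minus strand. S100P is at 6693878 to 6697170 on the plus strand. The main transcript has 3 exons in each gene except S100P, which has 2.

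The 250 bases upstream of a transcription start are shown for 5 of these genes (RefSeq, GRCh38.p14), chosen because S100A4 and S100A2 had the largest changes, S100A6 and S100A10 stand for the CpG-rich windows, and S100A9 stands for the genes with almost no reads. Each reads 5′ to 3′ on the gene's own strand, and capitals mark a match on either strand to an AP-1 motif (TGANTCA), a GC box (GGGCGG) or a TATA box (TATAAA).
S100A4, chr1:153545807-153546056, minus strand: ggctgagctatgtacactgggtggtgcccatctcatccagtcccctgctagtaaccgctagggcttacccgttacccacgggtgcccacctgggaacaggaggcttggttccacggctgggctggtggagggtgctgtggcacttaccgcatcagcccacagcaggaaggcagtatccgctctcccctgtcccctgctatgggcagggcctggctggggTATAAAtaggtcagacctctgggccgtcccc
S100A2, chr1:153565845-153566094, minus strand: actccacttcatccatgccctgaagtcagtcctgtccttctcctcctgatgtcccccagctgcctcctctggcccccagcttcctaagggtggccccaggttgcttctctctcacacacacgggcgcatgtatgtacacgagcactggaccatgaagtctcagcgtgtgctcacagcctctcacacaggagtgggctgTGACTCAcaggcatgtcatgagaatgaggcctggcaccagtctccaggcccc
S100A6, chr1:153535992-153536241, minus strand: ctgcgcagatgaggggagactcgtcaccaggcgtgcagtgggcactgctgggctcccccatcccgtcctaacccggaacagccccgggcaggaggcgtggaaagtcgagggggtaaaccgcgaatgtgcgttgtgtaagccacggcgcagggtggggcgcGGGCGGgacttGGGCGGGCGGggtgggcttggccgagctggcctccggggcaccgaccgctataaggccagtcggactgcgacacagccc
S100A10, chr1:151993860-151994109, minus strand: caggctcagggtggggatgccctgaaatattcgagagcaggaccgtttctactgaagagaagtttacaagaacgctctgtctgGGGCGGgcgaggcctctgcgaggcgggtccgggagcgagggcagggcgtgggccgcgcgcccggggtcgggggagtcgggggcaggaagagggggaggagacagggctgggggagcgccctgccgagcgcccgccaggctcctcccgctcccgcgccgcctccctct
S100A9, chr1:153357604-153357853, plus strand: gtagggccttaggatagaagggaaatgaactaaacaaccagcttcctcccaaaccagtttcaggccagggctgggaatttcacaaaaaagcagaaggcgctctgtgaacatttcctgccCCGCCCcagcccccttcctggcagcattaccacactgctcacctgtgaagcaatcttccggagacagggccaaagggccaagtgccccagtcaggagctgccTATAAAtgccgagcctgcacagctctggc

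These windows differ in base composition. The S100A6 and S100A10 windows each held 24 CpG dinucleotides, with a GC content of 70.0% and 71.2%, while S100A4 held 7 CpG, the S100A2 window shown 4 and S100A9 4. Over all annotated starts of the 10 genes, TATAAA was found in windows of S100A4, S100A8, S100A9, S100A13 and S100P, and GGGCGG in windows of S100A6 (3 matches), S100A9, S100A10, S100A11, S100A13 and S100A16. The AP-1 letters were found in S100A2 alone among the 10 genes, in the window shown. Over 35116 upstream windows of the same length, 10.7% held TATAAA, 42.6% GGGCGG and 6.57% TGANTCA. A match is a string of letters and not a measured binding site.

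The family's expression in these cells was carried by a few genes. Summed over all 21 S100 genes in the files, the level was 3842 ± 298 CPM (SD, n = 3) with NS shRNA, 2918 ± 105 with shRNA #1 and 4038 ± 318 with shRNA #2. Per kilobase of exon, the order in the NS libraries was S100A6 at 1774 ± 165 CPM per kb, S100A4 at 943 ± 119, S100A11 at 517 ± 15.0, S100A10 at 439 ± 18.4, S100A16 at 143 ± 8.28, S100A2 at 62.0 ± 12 and S100A13 at 21.6 ± 2.29, and no neighbours among these 7 overlapped between libraries. The order of S100A11 and S100A10 rests on the division by exon length. Without it S100A10 was the higher, at a mean of 444 CPM beside 336 in the NS libraries. S100A3, which is not among the 10 genes, stood at 63.6 ± 2.14 CPM per kb and overlapped S100A2. With shRNA #1, S100A4 fell behind S100A11 to 367 ± 36.7 CPM per kb and its range overlapped that of S100A10 at 330 ± 18.2. With shRNA #2, S100A4 stood second again at 1187 ± 137 CPM per kb, below S100A6 at 1522 ± 144. S100A6 was first in every group.

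**Figure D1:**
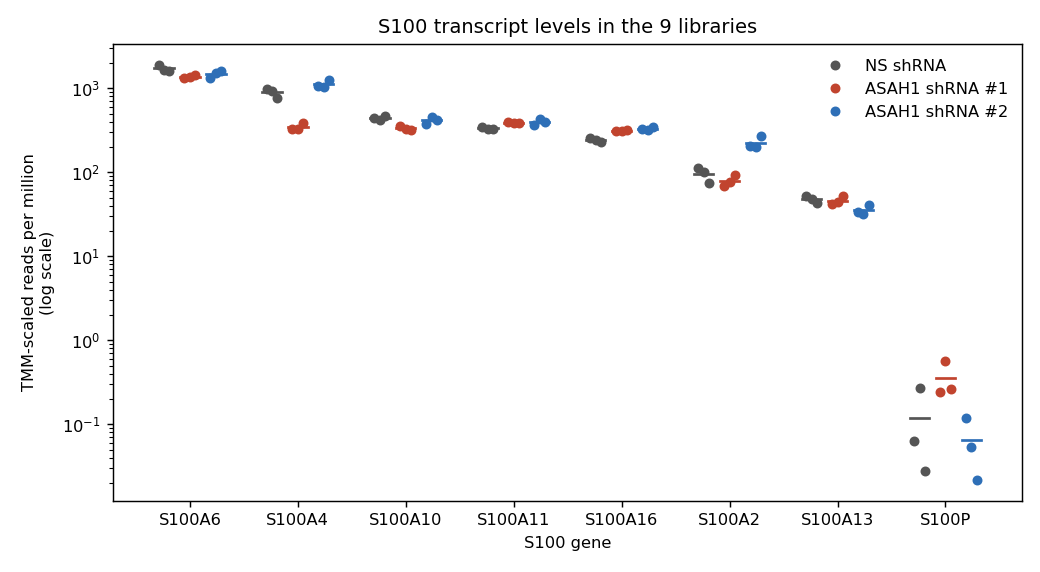
TMM-scaled reads per 1000000 (log scale) of 8 S100 genes in the 9 libraries. Points are libraries, coloured by group, and bars are group means. S100A4 drops with shRNA #1 only, S100A2 rises with shRNA #2 only, and S100P stays below 1 CPM in every library. S100A8 and S100A9 are left out because they had almost no reads.

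A gene was tested in a comparison when its mean normalized count over the 6 libraries was at least 10, and it was called at an adjusted p below 0.05. In both knockdown comparisons 7 of the 10 genes were tested, and S100A8, S100A9 and S100P were below the filter. With shRNA #1, 2 of the 7 were higher (S100A11 and S100A16), 3 were lower (S100A4, S100A6 and S100A10) and 2 did not pass. Over all 14341 genes tested 32.8% were higher and 33.3% lower. With shRNA #2, 4 were higher (S100A2, S100A4, S100A11 and S100A16), 2 were lower (S100A6 and S100A13) and S100A10 did not pass. Here 33.5% of all 14250 genes tested were higher and 33.4% lower. The median log2 fold change of the 7 genes was -0.27 with shRNA #1 and 0.23 with shRNA #2, beside 0.00 and 0.01 over all genes tested.

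Between both comparisons, S100A11 and S100A16 were higher and S100A6 lower with either hairpin, which makes 3 of the 7 genes called in the same direction, beside 40.5% of the 14075 genes tested in both. S100A4 was called in opposite directions, as were 7.96% of all genes. The comparisons share their NS libraries, so these counts are not independent of each other. When the hairpins were compared with each other, shRNA #2 libraries were higher in 3 of the 7 genes (S100A2, S100A4 and S100A10), beside 31.4% of all genes, and lower in S100A13, beside 32.5%.

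**Figure D2:**
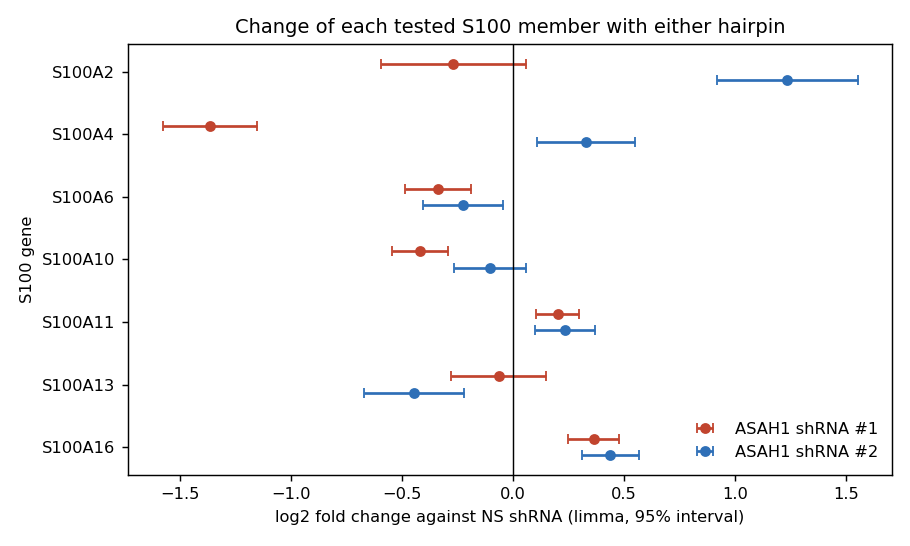
Log2 fold change of the 7 tested S100 genes with shRNA #1 and shRNA #2, each against NS shRNA, with 95% intervals from limma. The intervals of the hairpins lie on opposite sides of 0 for S100A4, and close together above 0 for S100A11 and S100A16.

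S100A4, the myosin-binding and metastasis-associated member, changed most with shRNA #1. Its level was 982, 928 and 766 CPM in the NS libraries, 323, 331 and 387 with shRNA #1, and 1069, 1029 and 1270.2 with shRNA #2. Every shRNA #1 library was below every NS library, and every shRNA #2 library was above them, the nearest being 982 and 1029. With shRNA #1 it fell to 0.388 of the NS level, a log2 fold change of -1.36 ± 0.09 (SE; limma, adjusted p = 1.84e-06). With shRNA #2 it was 1.26 times the NS level, a log2 fold change of 0.33 ± 0.10 (adjusted p = 0.0128), and this call was lost without the intensity trend (limma, adjusted p = 0.0587). The shRNA #2 libraries were 3.21 times the shRNA #1 libraries (edgeR, log2 ratio 1.68, adjusted p = 1.56e-07).

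S100A2, known from basal epithelial cells, rose with shRNA #2. It measured 112, 100.02 and 75.4 CPM with NS shRNA, 68.5, 76.1 and 93.7 with shRNA #1, and 207, 200.4 and 269.7 with shRNA #2. The NS and shRNA #1 libraries overlapped, and all shRNA #2 libraries stood above both. With shRNA #2 the level was 2.36 times that of NS shRNA (log2 fold change 1.24 ± 0.14, limma, adjusted p = 2.45e-05). With shRNA #1 the log2 fold change of -0.27 ± 0.15 did not pass (limma, adjusted p = 0.131). It passed without NS replicate 3 (-0.43, adjusted p = 0.00465) and without shRNA #1 replicate 3 (-0.39, adjusted p = 0.0222), and shrank to -0.15 without NS replicate 1 (limma, adjusted p = 0.417) and to -0.17 without shRNA #1 replicate 1 (adjusted p = 0.345). S100A2 also varied most within a group among the 7 genes, with a coefficient of variation of 19.4% over the NS libraries, beside 2.90% for S100A11. Between the hairpins the log2 ratio was 1.49 (edgeR, adjusted p = 9.05e-06).

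S100A6 (calcyclin), the most abundant member, was lower with both hairpins by a small amount. It measured 1906, 1645 and 1616 CPM with NS shRNA, 1312, 1352 and 1428 with shRNA #1, and 1323, 1515 and 1596 with shRNA #2. No knockdown library reached the lowest NS library. The log2 fold change was -0.34 ± 0.07 with shRNA #1 (limma, adjusted p = 0.00142) and -0.23 ± 0.08 with shRNA #2 (adjusted p = 0.0303). The shRNA #2 call did not survive without NS replicate 1 (-0.15, limma, adjusted p = 0.122) or without shRNA #2 replicate 1 (-0.15, adjusted p = 0.141). The adjusted p was also 0.0561 with no filter on low values and 0.0938 without the trend. Between the hairpins no difference passed (edgeR, adjusted p = 0.25), with a limma interval of -0.06 to 0.28 on the log2 scale.

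S100A10, the annexin A2 partner that does not bind calcium, was lower with shRNA #1. Its CPM was 446, 425 and 462 with NS shRNA, 355, 325 and 321 with shRNA #1, and 373, 458 and 417 with shRNA #2. All shRNA #1 libraries were below the rest, and the shRNA #2 libraries overlapped the NS libraries. The log2 fold change was -0.42 ± 0.06 with shRNA #1 (limma, adjusted p = 0.00013) and -0.10 ± 0.07 with shRNA #2 (adjusted p = 0.237). The latter passed without shRNA #2 replicate 2 (-0.17, limma, adjusted p = 0.041) and shrank to -0.03 without shRNA #2 replicate 1 (adjusted p = 0.756). The log2 ratio between the hairpins was 0.31 (edgeR, adjusted p = 0.00293).

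S100A11, an annexin A1 partner, and S100A16, a widely expressed member, rose with both hairpins. S100A11 measured 347, 332 and 329 CPM with NS shRNA, 394, 384 and 385 with shRNA #1, and 368, 427 and 394 with shRNA #2. S100A16 measured 257, 244 and 229 CPM, then 307, 312 and 323, and then 328, 319 and 344. In both genes every knockdown library was above every NS library. S100A11 was 1.15 times the NS level with shRNA #1 (log2 fold change 0.20 ± 0.04, limma, adjusted p = 0.00222) and 1.18 times with shRNA #2 (0.23 ± 0.06, adjusted p = 0.00596). S100A16 was 1.29 times the NS level with shRNA #1 (0.36 ± 0.05, limma, adjusted p = 0.000173) and 1.36 times with shRNA #2 (0.44 ± 0.06, adjusted p = 6.52e-05). A difference between the hairpins did not pass for either gene (edgeR, adjusted p = 0.744 and 0.3), with limma intervals on the log2 scale of -0.09 to 0.15 for S100A11 and -0.04 to 0.19 for S100A16. S100A11 has 8 annotated pseudogenes, so its counts carry the uncertainty of reads shared with such copies.

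S100A13, which takes part in the release of FGF1 from cells, was lower with shRNA #2. It measured 52.8, 48.3 and 42.7 CPM with NS shRNA, 41.4, 44.8 and 51.8 with shRNA #1, and 33.5, 32.1 and 40.5 with shRNA #2. The shRNA #2 libraries were below all others, and the NS and shRNA #1 libraries overlapped. The log2 fold change was -0.45 ± 0.10 with shRNA #2 (limma, adjusted p = 0.00267) and -0.06 ± 0.10 with shRNA #1 (adjusted p = 0.576). The log2 ratio between the hairpins was -0.39 (edgeR, adjusted p = 0.0082).

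S100A8 and S100A9, the subunits of calprotectin, were at or near 0 in these cells. S100A8 had 0 reads in all 9 libraries, and a count of 0 allows up to 3 reads, which is 0.0604 to 0.126 CPM depending on the library, without the TMM correction. S100A9 had 2 reads in shRNA #1 replicate 2 and 0 in the other libraries. These limits cover counting error only. S100P, a member known from placenta and from several carcinomas, had 2, 9 and 1 reads with NS shRNA, 6, 23 and 9 with shRNA #1, and 4, 2 and 1 with shRNA #2. The NS range overlapped both others, the 2 knockdown ranges did not overlap, and no fold is given at this depth.

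Markers of other cell types were set beside these values. The summed level of 7 myeloid marker genes was 30.5 to 37.1 CPM with NS shRNA, 12.4 to 12.5 with shRNA #1 and 31.5 to 36.2 with shRNA #2, and so was lower in the group in which S100A4 was lower. The lower sum came from CD14, the LPS co-receptor gene, named after its values were seen, with a log2 fold change of -2.14 with shRNA #1 (limma, adjusted p = 1.06e-07) and 0.10 with shRNA #2 (adjusted p = 0.356). The list did not move as a whole, since ITGAM had 6, 2 and 1 reads with NS shRNA and 12, 15 and 27 with shRNA #1, and CSF1R did not pass there (0.34, limma, adjusted p = 0.0857). Of the 7 genes, 3 had fewer than 10 reads in every library, the defining leukocyte gene PTPRC among them, and S100A8 and S100A9 were at or near 0. The 6 keratinocyte markers summed to 38.9 to 46.0 CPM with NS shRNA, 50.9 to 54.5 with shRNA #1 and 48.1 to 54.9 with shRNA #2, with 2 of them at 0 in every library. Most of this sum was KRT10, named after its values were seen, at a mean of 37.4, 49.8 and 46.1 CPM in the same order. KRT5, named likewise, was lower with shRNA #1 (log2 fold change -0.78, limma, adjusted p = 0.0178) and not called with shRNA #2 (0.31, adjusted p = 0.302). The luminal markers summed to 153 to 162, 100.1 to 108.0 and 124 to 142 CPM in the same order. Most of this sum was ERBB2, at a mean of 98.3, 61.2 and 74.1 CPM. The luminal list did not move as a whole, by genes named after their values were seen. With shRNA #1 and shRNA #2 the log2 fold change was -3.41 and -4.97 for CDH1, -0.48 and 0.25 for GATA3, and 0.21 and 0.57 for EPCAM (limma, adjusted p at most 0.0362). The part of these differences in the S100 values was not tested.

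The other 11 S100 genes were mostly silent. With shRNA #1, 3 were tested, 2 of them higher (32.8% of all genes) and 1 lower (33.3%), and with shRNA #2, 4 were tested, 2 of them higher (33.5%) and 1 lower (33.4%). Of the higher genes, S100A14 and S100Z passed the filter only through the knockdown libraries and had to differ, so these counts lend no support. S100A3 measured 55.5, 53.2 and 51.9 CPM with NS shRNA, 35.9, 37.0 and 38.8 with shRNA #1, and 24.7, 26.5 and 29.5 with shRNA #2. It fell with both hairpins (log2 fold change -0.53 and -0.999, limma, adjusted p = 2.47e-05 and 1.3e-06), without overlap between the 3 groups. The gene lies within the annotated span of S100A4 on the same strand, with 0 shared exonic bases, and the counts of such overlapping genes are uncertain. S100A14 had 3, 5 and 8 reads with NS shRNA, 12, 28 and 28 with shRNA #1, and 17, 17 and 15 with shRNA #2, with log2 fold changes of 1.92 and 1.37 given as a description only. S100A5, named after its values were seen, was higher with shRNA #1 (0.44, limma, adjusted p = 0.0157) and not called with shRNA #2 (-0.21, adjusted p = 0.214).

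S100Z, named after its values were seen, was tested with shRNA #2 alone. It had 1, 1 and 3 reads with NS shRNA, 9, 15 and 13 with shRNA #1, and 21, 21 and 34 with shRNA #2. Against a floor of 3 reads in each NS library its mean CPM with shRNA #1 was at least 4.14-fold higher, and that of the shRNA #2 libraries at least 7.28-fold higher. The remaining genes, S100A1, S100A7, S100A7A, S100A7L2, S100A12, S100B and S100G, had at most 5 reads in any library. S100A7L2 is annotated as an unprocessed pseudogene and is counted among the S100 genes here. S100A1 overlaps S100A13 on the opposite strand by 235 exonic bases, and the counting used strand. In the fused-type genes, which join an S100 domain to long repeats, 2 of 7 were tested. FLG (filaggrin), named after its values were seen, was lower with shRNA #1 (log2 fold change -0.25, limma, adjusted p = 0.018) and higher with shRNA #2 (1.61, adjusted p = 1.02e-06). TCHH (trichohyalin), with 4 to 32 reads per library, had log2 fold changes of -1.49 and -1.46. Its mean normalized count with shRNA #1 was 8.38, so it passed that filter only through the NS libraries, at 25.7. With shRNA #2 it was lower (limma, adjusted p = 0.0293).

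**Figure D3:**
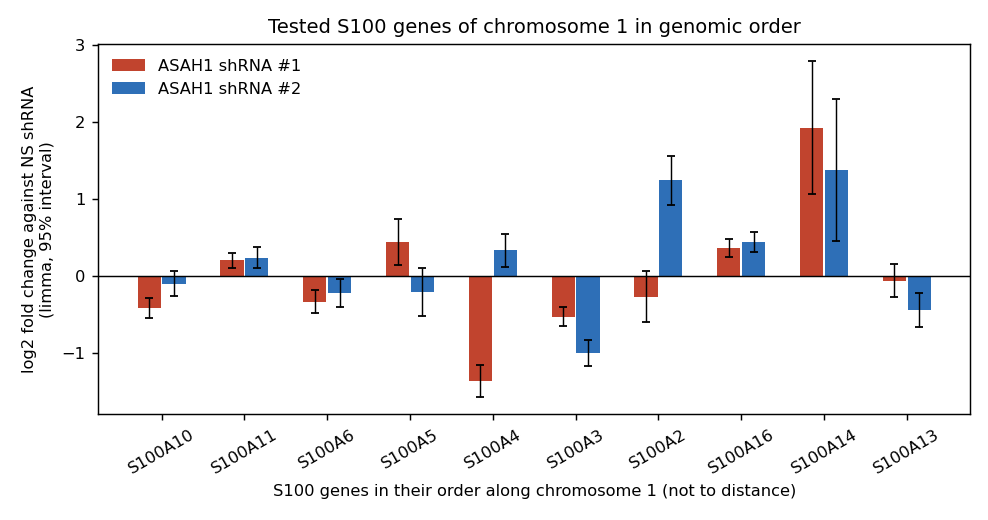
Log2 fold change of the 10 tested S100 genes of chromosome 1 with shRNA #1 and shRNA #2, each against NS shRNA, in their order along the chromosome and not to distance, with 95% intervals from limma. Neighbouring genes point in different directions, as S100A4, S100A3 and S100A2 do with shRNA #2.

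Position was not used to choose the genes, so their surroundings were described as well. Protein-coding genes that start within 200 kb of one of the 10 genes numbered 27, of which 25 were matched by name and 16 were tested. The 10 genes and the other S100 genes were left out, but fused-type genes were kept. TCHH, lower with both hairpins, is therefore counted both here and among the fused-type genes. With shRNA #1, 4 were higher and 10 lower, and with shRNA #2, 5 were higher and 8 lower, beside the shares of all genes given above. The medians were -0.28 and -0.36. With both hairpins 3 were higher, 7 lower and 1 moved in opposite directions. Some of the lower genes passed the filter only through the NS libraries and had to differ. SLC27A3, a fatty acid transporter gene near S100A13, fell by 1.09 and 1.87 on the log2 scale with shRNA #1 and shRNA #2 (limma, adjusted p = 9.22e-05 and 2.45e-06), and PPP2R2C, a phosphatase subunit gene near S100P, rose by 1.30 and 3.01 (adjusted p = 4.6e-05 and 4.34e-08). NPR1 fell by 1.59 with shRNA #1, from 28 to 49 reads with NS shRNA to 10 to 13 (limma, adjusted p = 0.00118). With shRNA #2 it had 2 to 8 reads and passed the filter only through the NS libraries.

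Annexins bind membranes in the presence of calcium, and some do so in a complex with an S100 dimer. Of the 13 annexin genes, 12 were tested. With shRNA #1, 1 was higher (32.8% of all genes tested) and 6 lower (33.3%), with a median log2 fold change of -0.16. With shRNA #2, 3 were higher (33.5%) and 8 lower (33.4%), with a median of -0.43. ANXA10 and, with shRNA #2, ANXA9 passed the filter only through the group in which they were high. ANXA2, which binds S100A10, measured 879, 841 and 834 CPM with NS shRNA, 814, 837 and 837 with shRNA #1, and 864, 913 and 885 with shRNA #2, and passed with neither hairpin (log2 fold change -0.04 and 0.06, limma, adjusted p = 0.386 and 0.328). ANXA1, which binds S100A11, had a log2 fold change of -0.04 with shRNA #1 (adjusted p = 0.414) and of -0.13 with shRNA #2 (limma, adjusted p = 0.0381). The latter was not called without NS replicate 1 or 2 or without shRNA #2 replicate 1 or 3 (limma, adjusted p from 0.0679 to 0.142). Nor was it called with no filter, without the trend or with a replicate block (limma, adjusted p from 0.076 to 0.169). No library held less than 594.9 CPM of either gene.

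Among annexins called in the same direction with both hairpins, 5 were lower and 1 was higher, beside 40.5% of all genes tested in both comparisons, which share their NS libraries. ANXA6, a membrane-binding annexin with a doubled core, fell by 0.52 with shRNA #1 and by 1.06 with shRNA #2 on the log2 scale (limma, adjusted p = 4.77e-06 and 4.34e-08). The log2 fold change was -1.47 and -1.44 for ANXA8 and -1.45 and -1.83 for ANXA8L1 (limma, adjusted p at most 6.91e-06). These near-identical copies share reads, so their separate values are uncertain. ANXA10, which entered through its knockdown libraries, had log2 fold changes of 1.65 and 2.09 from under 1 CPM, given as a description. ANXA3 was the 1 annexin called in opposite directions, at -0.58 and 0.14 (limma, adjusted p = 2.73e-06 and 0.0285), and is named for that reason after its values were seen.

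Of the 15 partner and receptor genes, 14 were tested, and CD36 was below the filter. With shRNA #1, 4 were higher (32.8% of all genes tested) and 8 lower (33.3%), and with shRNA #2, 6 were higher (33.5%) and 4 lower (33.4%), with medians of -0.19 and 0.06. MYH9, the myosin heavy chain bound by S100A4, had a log2 fold change of -0.23 with shRNA #1 (limma, adjusted p = 0.0026) and 0.02 with shRNA #2 (adjusted p = 0.747). CACYBP, the calcyclin-binding protein gene, was at -0.42 and -0.14 (limma, adjusted p = 0.000658 and 0.135). Its shRNA #2 value passed without NS replicate 3 (-0.21, limma, adjusted p = 0.0231) or without shRNA #2 replicate 3 (-0.21, adjusted p = 0.0325). AHNAK, a giant scaffold that joins the S100A10 and annexin A2 complex, measured 1349, 1494 and 1634 CPM with NS shRNA, 1063, 1093 and 950.2 with shRNA #1, and 2077, 1957 and 1754 with shRNA #2. It was lower with shRNA #1 (-0.53, limma, adjusted p = 0.000216) and higher with shRNA #2 (0.37, adjusted p = 0.00227), without overlap between the groups.

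MDM2, a ubiquitin ligase gene, was higher with both hairpins (log2 fold change 0.44 and 0.57, limma, adjusted p = 0.00019 and 1.26e-05). S100PBP, which encodes an S100P-binding protein, rose by 0.32 and 0.84 (limma, adjusted p = 0.000851 and 8.52e-07) in cells with almost no S100P reads. BSG (basigin), a receptor for S100A9, fell by 0.15 and 0.19 on the log2 scale (limma, adjusted p = 0.0112 and 0.00497). Its shRNA #1 call was lost with a replicate block (limma, adjusted p = 0.0631). AGER, which encodes RAGE, was at 1.35 to 2.28 CPM in all libraries and was lower with shRNA #2 (-0.64, limma, adjusted p = 0.00405), while -0.22 with shRNA #1 did not pass (adjusted p = 0.186).

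In this group 4 of the 14 genes were called in opposite directions with the hairpins, beside 7.96% of all genes, AHNAK among them, and the other three are named after their values were seen. TLR4, a receptor for calprotectin, measured 15.60, 18.1 and 20.9 CPM with NS shRNA, 15.55, 14.8 and 15.1 with shRNA #1, and 72.1, 80.2 and 68.3 with shRNA #2. All shRNA #2 libraries stood above all others, with a log2 fold change of 2.02 (limma, adjusted p = 1.09e-07). The shRNA #1 value of -0.26 was called (limma, adjusted p = 0.0479) and was lost without NS replicate 2 or 3 or any 1 of the shRNA #1 libraries (adjusted p from 0.0638 to 0.15). This call was also lost with no filter, without the trend, under upper quartile rescaling and with a replicate block (limma, adjusted p from 0.055 to 0.087). ALCAM, a cell adhesion molecule, was at -0.50 and 0.54 (limma, adjusted p = 3.16e-05 and 8.41e-06). FGF1, whose release S100A13 takes part in, was at 1.14 with shRNA #1 and -1.32 with shRNA #2 (limma, adjusted p = 1.12e-05 and 4.26e-05). Between the hairpins the log2 ratio (edgeR) was 0.89 for AHNAK, 2.27 for TLR4, 1.02 for ALCAM and -2.50 for FGF1, all at adjusted p of at most 2.2e-06.

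**Figure D4:**
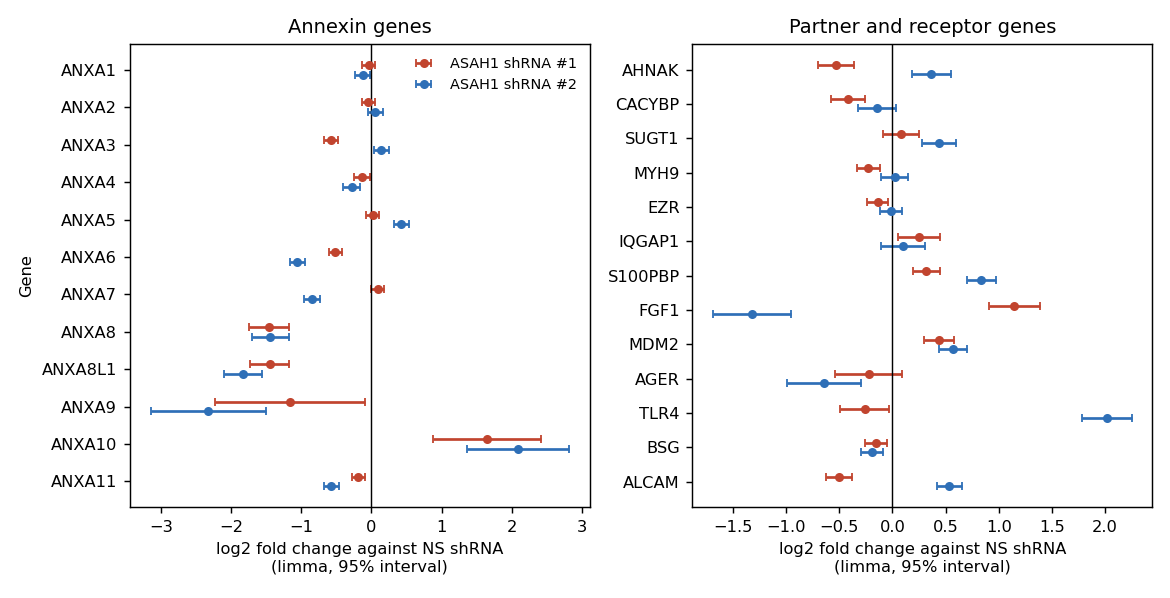
Log2 fold change of 12 annexin genes (left) and 13 S100 partner and receptor genes (right) with shRNA #1 and shRNA #2, each against NS shRNA, with 95% intervals from limma. The widest separations between the hairpins are those of TLR4 and FGF1, and ANXA1 and ANXA2 lie near 0 with both.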

How the data were processed

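RNA from 9 MDA-MB-231 libraries was sequenced, and groups follow the deposited labels. The authors' processing notes name Trimmomatic 0.36, STAR 2.7.1a, HTSeq and DESeq2 1.28 with GRCh38, and the methods give counting on UCSC genes by reverse strand. One description names oligo-dT selection and another ribosomal RNA depletion, and another paragraph of the methods names other tools. The authors deposited, per hairpin, a normalized signal for 26485 genes in 6 libraries (a read count divided by a DESeq2 size factor), with columns of their own fold changes, statistics and p-values, which were not used. No per-sample column was left unmatched. 28 symbols turned into dates were restored from the other table. Whole reads (100% of values within 0.1) were recovered from the signals, and the NS libraries were the same in both tables, with 0 differences.

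Each hairpin was compared with NS shRNA within its table by limma 3.58.1 with an intensity trend (R 4.3.3) on log2(value + 1). Tests were two-sided, genes with a mean below 10 were left out, and p-values were adjusted by Benjamini-Hochberg over all genes tested, with a threshold of 0.05. Fold changes are on that scale and understate low genes. For hairpin against hairpin, the recovered reads of the 9 libraries entered 1 quasi-likelihood fit in edgeR 4.0.16 with TMM. Levels are TMM CPM, per kb of merged GENCODE exon length where genes are compared. The chi-square per gene between replicates was 5.26 to 23.2, above what a library deposited again would give. P-values measure the spread between these libraries. Alternatives were pseudocounts of 0.1 and 5, no filter, a mean of at least 50, no trend, upper quartile rescaling, edgeR and DESeq2 1.42.0 on recovered reads, a joint limma fit, a block for the replicate number and each library left out. The scripts were tested on simulated data.

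The members and lists were chosen with earlier results of these data known. The genes named are ASAH1, all members, 7 fixed partner and annexin genes (ANXA1, ANXA2, CACYBP, MYH9, AHNAK, AGER and S100PBP), and up to 4 per other list ranked by the size of their mean log2 fold change, if called in the same direction with both hairpins. Other genes are marked in the text as named after their values were seen. Some genes that this rule names are not reported here, and protein sequences were not used.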

Additional observations from a re-analysis of the deposited data

Results flagged for a closer look

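S100A2, S100A4, S100A10 and S100A13 responded differently to the hairpins, by the direct test of shRNA #2 against shRNA #1 (edgeR's quasi-likelihood test, 3 libraries each). Of all 14382 genes in that test, 31.4% were higher and 32.5% lower with shRNA #2, so such a difference was common and not particular to these members. The log2 ratio was 1.49 for S100A2 (adjusted p = 9.05e-06), 1.68 for S100A4 (adjusted p = 1.56e-07), 0.308 for S100A10 (adjusted p = 0.00293) and -0.392 for S100A13 (adjusted p = 0.0082). In S100A2, S100A4 and S100A13 no shRNA #2 library overlapped a shRNA #1 library, and the same held for S100A10, where the nearest libraries were 355 and 373 CPM. ASAH1 itself also differed between the hairpins (log2 ratio -0.89), and whether its level plays a part was not tested.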

How the results depend on the processing

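Of 21 results on the S100 members (7 genes in 3 comparisons), 14 kept their direction and their side of the threshold under every alternative run. Depth limits S100A8, S100A9 and S100P, and 3 libraries per group limit the small changes.
The count of lower members with shRNA #2 went from 2 to 1 with no filter, without the trend and with the replicate block, and ranged from 1 to 3 with each library left out. The count lower between the hairpins went from 1 to 2 with no filter, by S100P, with 1 to 23 reads per library (edgeR, adjusted p = 0.00622). With shRNA #1 and no filter, S100P was called higher (limma, adjusted p = 0.0438). Reversed values, none of them called, were S100A13 with shRNA #1 without NS replicate 1 (0.0087) or shRNA #1 replicate 1 (0.0039; range with each library left out -0.15 to 0.0087), MYH9 with shRNA #2 under upper quartile rescaling (-0.023) and without NS replicate 1 (-0.012) or shRNA #2 replicate 1 (-0.017; range to 0.052), and the hairpin ratio under upper quartile rescaling of S100A11 (-0.054) and S100A16 (-0.013), and of S100A11 without shRNA #2 replicate 2 (-0.036; range to 0.073).
With a mean of at least 50, which tests fewer genes, the other S100 genes higher were 1 with shRNA #1 and 0 with shRNA #2, the annexins higher with shRNA #1 were 0, the fused-type genes lower were 1 with shRNA #1 and 0 with shRNA #2, and the neighbours lower with shRNA #2 were 4. Leaving out libraries gave 1 to 2 other S100 genes higher with either hairpin, and 1 to 2 fused-type genes lower with shRNA #1 and 0 to 1 with shRNA #2. The latter count was 0 without the trend, and the former was 1 in the fit of all 9 libraries. FLG with shRNA #1 lost its call without NS replicate 3 (limma, adjusted p = 0.0617) or shRNA #1 replicate 2 (0.0547), and TCHH with shRNA #2 without NS replicate 2 (0.0972) or shRNA #2 replicate 3 (0.062). S100A5 with shRNA #1 lost it without NS replicate 1 (limma, adjusted p = 0.0582).
Replicate numbers are shared between the groups, and same-numbered libraries correlated at -0.302 to 0.197 in their deviations from the group means. The same correlation was not computed for different-numbered libraries, so these values cannot settle whether the libraries were paired. With the replicate block, partners lower with shRNA #1 went from 8 to 5, fused-type genes lower from 2 to 1 and neighbours lower from 10 to 6. Genes called with shRNA #1 went from 4700 higher and 4779 lower to 4120 and 4117. For every other change of a count, where no construction is named, the cause was not tested.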
